A study of Mus musculus with 4 samples.

Results

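The common gamma chain cytokine receptors are the chain encoded by Il2rg and the 7 receptor chains that pair with it, encoded by Il7r, Il2rb, Il2ra, Il4ra, Il15ra, Il21r and Il9r. They were taken by gene symbol from a table of read counts, where 8 of 46517 genes matched. The reads came from invariant natural killer T (iNKT) cells sorted from mouse thymus at stage 1, which the labels define as CD24- NK1.1- T-bet-, in the C57BL/6J strain. The cDNA was amplified with the SMART-seq v4 kit for low input and sequenced on an Ion Proton. The 2 libraries labelled Prmt5 KO carry the genotype Prmt5 flox/D Cd4-Cre. The 2 libraries labelled Control share the genotype entry "Prmt5 flox/D, Prmt5 flox/+ Cd4-Cre", and nothing says which of the listed genotypes each library had. A floxed Prmt5 allele is thus common to both groups, and a Control library may carry Cd4-Cre. The meaning of D is not explained. Cd4-Cre acts in developing T cells and is not restricted to iNKT cells. The labels give no age or sex, nor whether animals were pooled or the libraries of a group came from separate mice. Every p-value below therefore rests on the spread among these libraries alone, part of which may be technical. PRMT5 is an arginine methyltransferase whose substrates include the Sm proteins of the spliceosome, and the comparison addressed which transcripts differ when its gene is deleted.

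Receptors of this family are assembled from shared and specific parts. The gamma chain, CD132, binds the kinase JAK3 and gives the receptors for IL-2, IL-4, IL-7, IL-9, IL-15 and IL-21 their common signal, while the specific chains largely set which cytokine is bound. JAK1 is carried by chains such as those of Il7r, Il4ra and Il2rb, and not by the alpha chains of Il2ra and Il15ra. IL-7 maintains developing and resting T cells, and IL-15, through the chain encoded by Il2rb, is required for the maturation and survival of iNKT cells that make interferon gamma. Loss of the gamma chain causes severe combined immunodeficiency.

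Exon reads numbered 13240293 and 5355378 in the libraries labelled Prmt5 KO, against 5571860 and 4600799 in Control. Prmt5 itself stood at 86.7 and 119 CPM (exon reads scaled to library size by the TMM method) in Prmt5 KO, against 98.3 and 99.8 CPM in Control, so the groups overlapped. The count covers the whole gene and holds no reads per exon, and it does not check the deletion; the groups are named here as labelled.

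By exon reads per length, the gamma chain was the most abundant of the 8. Il2rg averaged 307 CPM per kilobase of exon in Prmt5 KO and 616 in Control. Il2rb, the chain shared by the IL-2 and IL-15 receptors, averaged 134 CPM per kilobase in Prmt5 KO and 175 in Control, and Il7r 116 in Prmt5 KO and 91.9 in Control. The levels per kilobase of Il2rb and Il7r overlapped among the Prmt5 KO libraries and not among the Control libraries. Il21r followed with 36.4 and then Il4ra with 5.21 CPM per kilobase in Prmt5 KO, against 22.5 and 1.51 in Control. The levels per kilobase of Il15ra (1.303 in Prmt5 KO and 0.958 in Control) and Il9r (0.714 in Prmt5 KO and 1.15 in Control) overlapped in each group, and Il2ra was last at 0.0976 in Prmt5 KO and 0.520 in Control. Averaged over the 4 libraries, the order placed Il2rg at the 98.8th percentile of the genes tested and Il2ra at the 1.20th.

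None of the 8 genes passed the test between the groups. All 8 passed the filter on low counts, and edgeR's quasi-likelihood test with Benjamini-Hochberg adjustment over 10775 genes called 0 of them higher and 0 lower at an adjusted p of 0.05. Of all genes tested, 0% were called higher and 0.00928% lower, so the count of 0 equals that of nearly the whole table. At an unadjusted p under 0.05 there were 2 of 8, Il2rg and Il4ra, against 8.58% of all genes. DESeq2, limma-voom and edgeR's exact test each called 0 of the 8 as well. The libraries of the 2 groups did not overlap for 3 members with higher values in Prmt5 KO (Il7r, Il4ra and Il21r) and 3 with lower ones (Il2rg, Il2rb and Il2ra). Over all genes tested that held for 20.5% upward and 19% downward. The median log2 fold change, Prmt5 KO over Control, was -0.03 over the 8 and 0.00 over all genes.

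**Figure D1:**
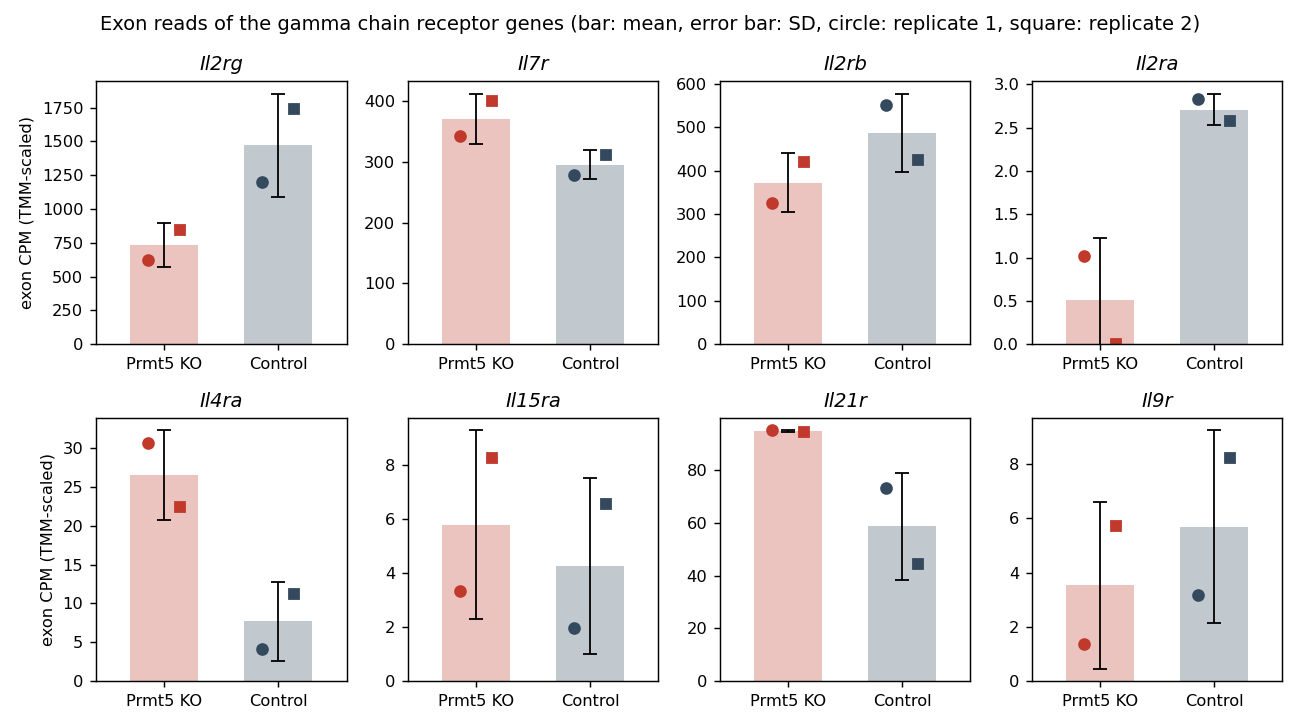
Exon CPM of the 8 receptor genes in each library (points), with group means (bars) and SD (error bars, n = 2 each), Prmt5 KO left of Control, each panel on its own linear axis. Il2rg is lower in both Prmt5 KO libraries (620 and 848 CPM) than in both Control libraries (1200 and 1742 CPM), while Il4ra and Il21r are higher, and the groups overlap for Il15ra and Il9r.

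The gamma chain gene needs its annotation read first, because few of its reads were unique. Il2rg (ENSMUSG00000031304.18, protein-coding) lies on the minus strand at chrX:101264378-101268255 on mm10, wholly inside the span of a second protein-coding gene model, Gm20489, at chrX:101261405-101269023. In GENCODE M21 both genes have the coordinates and exon length of the deposited table. M21 differs from the table in exon length for Il7r, Il2rb, Il2ra, Il4ra and Il21r and in coordinates for Il7r, Il2rb and Il4ra, so the counts may rest on another annotation. In M21 the longest Il2rg transcript has 8 exons and 7 exon junctions, and Gm20489 shares 5 of the 7 junctions. The first 2 junctions, from exon 1 to exon 2 and from exon 2 to exon 3, are in Il2rg alone. Gm20489 instead joins its own first exon, upstream of Il2rg, directly to exon 3 of Il2rg. The 4 junctions below show what a read can tell apart: 30 bases stand on each side, 5′ to 3′ on the transcript, from GENCODE M21, with exons that the transcripts share in capitals and other exons in lower case.
Il2rg exon 1 to exon 2: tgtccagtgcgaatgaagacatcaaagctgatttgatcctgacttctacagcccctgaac
Il2rg exon 2 to exon 3: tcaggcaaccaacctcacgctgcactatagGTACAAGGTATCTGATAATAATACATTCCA
Gm20489 exon 1 to exon 2: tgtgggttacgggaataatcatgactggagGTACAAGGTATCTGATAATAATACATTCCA
Il2rg exon 3 to exon 4: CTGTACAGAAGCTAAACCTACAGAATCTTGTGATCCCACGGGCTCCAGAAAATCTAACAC
The capitals of the Gm20489 sequence and of the Il2rg sequence above it are the same exon, and only the lower-case side names the gene. The last sequence is in both genes, so a read across it names neither.

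**Figure D2:**
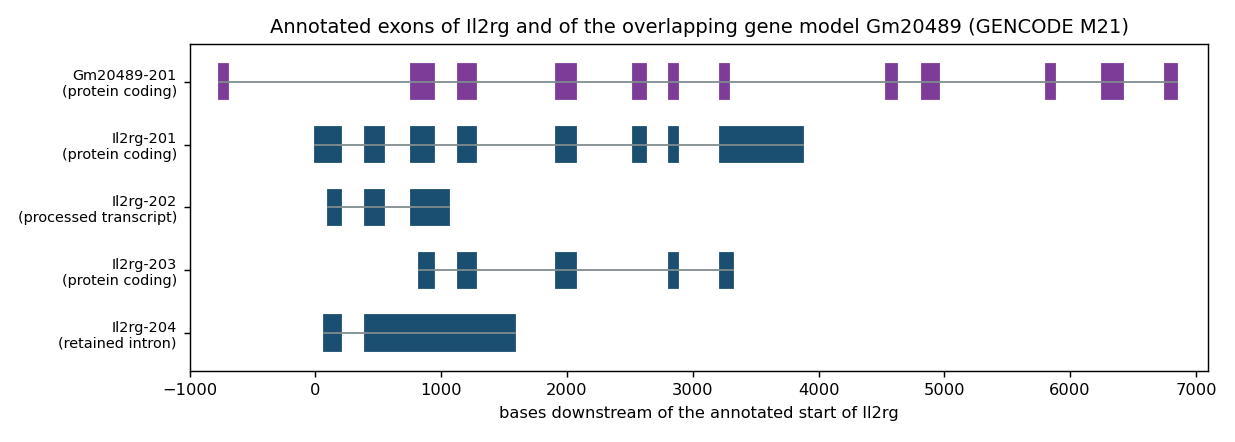
Annotated exons (boxes) of Gm20489 and of the 4 Il2rg transcripts in GENCODE M21, placed by distance in bases downstream of the annotated start of Il2rg. Il2rg lies wholly inside Gm20489, and the retained-intron transcript Il2rg-204 covers introns 2 and 3 as exon.

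The deposited counts followed this layout. In every library the unique exon reads of Il2rg equalled its unique junction reads, at 2183 and 1222 in Prmt5 KO and 1504 and 1036 in Control. Every unique read therefore crossed a junction. The same held for 97 of the 5393 genes whose unique exon reads numbered 100 or more in each library. Unique reads made up 23.9% (95% Wilson interval 23.0 to 24.7) and 28.4% (27.1 to 29.8) of Il2rg exon reads in Prmt5 KO 1 and 2, and 22.2% (21.2 to 23.2) and 13.96% (13.2 to 14.8) in Control 1 and 2. These intervals cover counting error only, since amplified reads that carry no molecular identifier do not each stand for a molecule. The 7 other receptor genes were counted almost wholly from unique reads, with the lowest share, 97.9%, for Il4ra in Control 2. Gm20489 itself was given 32 and 8 exon reads in Prmt5 KO and 2 and 74 in Control, of which at most 1 per library was unique. Adding them to Il2rg left its log2 fold change at -1.01.

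Counted over all exon reads, Il2rg was lower in both Prmt5 KO libraries. It had 9150 and 4305 exon reads in Prmt5 KO and 6777 and 7422 in Control, which scaled to 620 and 848 CPM in Prmt5 KO and 1200 and 1742 CPM in Control. The groups did not overlap. The means were 734 ± 161 CPM in Prmt5 KO and 1471 ± 383 CPM in Control (SD, n = 2 each), a log2 fold change of -1.004 ± 0.39 (SE, 95% interval -1.89 to -0.12). The unadjusted p was 0.0305 and the adjusted p = 0.496 in edgeR's quasi-likelihood test, so the difference did not pass over all genes.

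Split by kind of read, the largest part of the difference in mean Il2rg level lay in reads that cross no junction, and Control 2 carried it. On the scale of all exon reads, unique junction reads stood at 148 and 241 CPM in Prmt5 KO, against 266 and 243 CPM in Control. Prmt5 KO 2 and Control 2 were nearly equal there. Junction reads that were not unique stood at 169.5 and 161 CPM in Prmt5 KO, against 375 and 194 CPM in Control. Reads that cross no junction stood at 303 and 446 CPM in Prmt5 KO, against 559 and 1305 CPM in Control, so Control 2 stood apart from the other 3 libraries in this kind of read. Against Control 1 alone, the Prmt5 KO mean differed by more in the non-unique junction reads than in the reads that cross no junction. How the counting divided reads that match both Il2rg and Gm20489 is not stated. Tested each on its own scaling, the log2 fold change was -0.40 ± 0.35 (SE) for unique exon reads, -0.55 ± 0.37 for all junction reads and -1.33 ± 0.47 for reads that cross no junction, with adjusted p of 0.832, 0.788 and 0.456 in edgeR. The 95% interval for junction reads ran from -1.42 to 0.31. It does not show that the groups are alike.

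Control 2 also stood apart in the junction share of Il2rg. Junction reads were 51.2% and 47.4% of Il2rg exon reads in Prmt5 KO, against 53.4% and 25.1% in Control. Over the 5702 genes with at least 100 exon reads in every library, the median junction share was 53.0% and 54.0% in Prmt5 KO and 54.3% and 52.9% in Control. The share of Il2rg in Control 2 differed by -26.1 percentage points from the median of the other 3 libraries, which placed it at the 0.421th percentile of the same difference over those genes. Without Control 2 the log2 fold change of Il2rg was -0.72 in exon reads and -0.79 in junction reads. Without Control 1 it was -1.22 in exon reads and -0.27 in junction reads. The longest transcript ends in an exon of 660 bases with no junction inside it, and the table holds no position of reads within a gene, so where in Il2rg the additional reads of Control 2 lie was not tested.

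**Figure D3:**
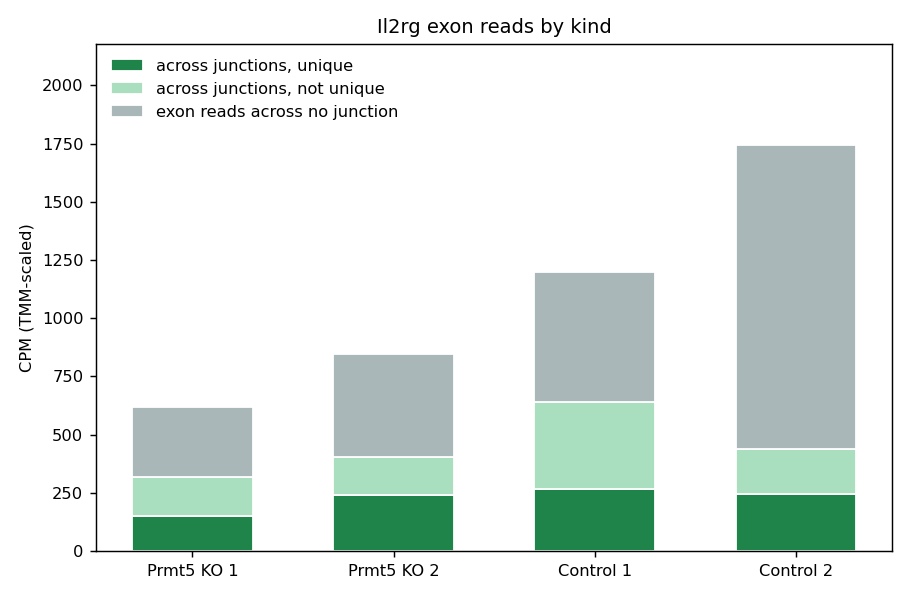
Il2rg exon reads in each library in TMM-scaled CPM (stacked bars), split into unique junction reads, non-unique junction reads and reads that cross no junction. The unique part lies between 148 and 266 CPM, and the part that crosses no junction reaches 1305 CPM in Control 2 against at most 559 CPM elsewhere.

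A direct test of the unique against the non-unique exon reads of Il2rg depended on the Control libraries. The ratio of non-unique to unique reads had a log2 change of -0.73 ± 0.27 (SE) in Prmt5 KO relative to Control, with an unadjusted p of 0.0311 and an adjusted p = 0.986 over 2836 genes in edgeR, of which 0% were called and 86 had an unadjusted p under 0.05. Il2rg was the only receptor gene with enough non-unique reads for this test. Without Control 1 the change was -1.11 (adjusted p = 2.07e-05), in a fit where 119 of 2667 genes were called, and without Control 2 it was -0.29. Among the fits without 1 library, only the one without Control 1 called Il2rg. In that fit the spread comes from the Prmt5 KO libraries alone and the lone Control library is assumed to vary like them, so its p holds no measure of variation among Control libraries.

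The main chains of the IL-7 and IL-15 receptors did not pass the test, with small fold changes. Il7r, which encodes the IL-7 chain CD127 and lies at chr15:9506161-9529876, had 5041 and 2031 exon reads in Prmt5 KO and 1571 and 1328 in Control. That is 342 and 400 CPM in Prmt5 KO and 278 and 312 CPM in Control, without overlap. The log2 fold change was 0.33 ± 0.32 (SE, 95% interval -0.39 to 1.05, adjusted p = 0.859 in edgeR). Il2rb (chr15:78480553-78495066) stood at 325 and 420 CPM in Prmt5 KO and 552 and 424 CPM in Control. Prmt5 KO 2 and Control 2 were nearly equal, and the log2 fold change was -0.39 ± 0.34 (SE, 95% interval -1.16 to 0.39, adjusted p = 0.840). With 1 library left out, Il7r ran from 0.22 to 0.45, and Il2rb was -0.15 without Control 1 and -0.58 without Prmt5 KO 2. For both genes unique reads gave nearly the same fold changes as all exon reads, 0.32 and -0.40.

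Il4ra and Il21r, neighbours on chromosome 7, both had higher values in Prmt5 KO. Il4ra, at chr7:125552282-125579472, encodes the chain that binds IL-4 and, with Il13ra1, IL-13. It had 452 and 114 exon reads in Prmt5 KO and 23 and 48 in Control, or 30.6 and 22.4 CPM in Prmt5 KO and 4.07 and 11.3 CPM in Control. Both Prmt5 KO libraries lay above both Control libraries, by a log2 fold change of 1.80 ± 0.65 (SE, 95% interval 0.34 to 3.27). The unadjusted p was 0.0213 and the adjusted p = 0.448 in edgeR. The value was 2.70 without Control 2 and 1.27 without Control 1. Il21r, the receptor chain for IL-21, starts 23956 bases downstream on the same strand, at chr7:125603429-125633570. It stood at 95.1 and 94.7 CPM in Prmt5 KO and 73.1 and 44.4 CPM in Control, with a log2 fold change of 0.69 ± 0.36 (SE, adjusted p = 0.642). That value was 0.37 without Control 2 and 1.13 without Control 1. In junction reads it was 1.01, from 54.3 and 42.9 CPM in Prmt5 KO and 28.6 and 19.5 CPM in Control, with an unadjusted p of 0.0445 and an adjusted p = 0.610. Neither gene passed with either kind of read.

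**Figure D4:**
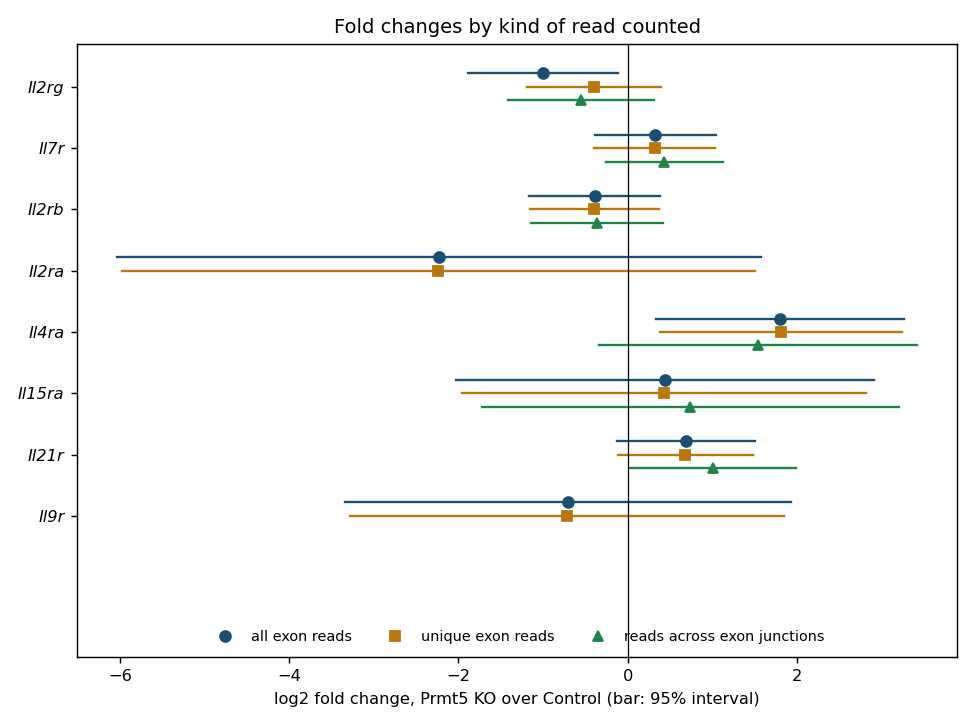
Log2 fold change of each receptor gene, Prmt5 KO over Control, with 95% intervals from edgeR, for all exon reads, unique exon reads and junction reads (n = 2 libraries per group). The estimates nearly coincide for Il7r and Il2rb, and for Il2rg they run from -1.004 with all exon reads to -0.40 with unique reads; Il2ra and Il9r had too few junction reads to be tested.

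The remaining chains had few reads. Il2ra (chr2:11642807-11693193), the high-affinity IL-2 chain CD25, had 15 and 0 exon reads in Prmt5 KO and 16 and 11 in Control. That is 1.02 and 0 CPM in Prmt5 KO, where 0 reads allow up to 0.591 CPM, and 2.83 and 2.58 CPM in Control. Its log2 fold change of -2.23 had a 95% interval from -6.04 to 1.58. Il15ra, which presents IL-15 to neighbouring cells and starts 12096 bases downstream of Il2ra, at chr2:11705290-11734317, had 49 and 42 exon reads in Prmt5 KO and 11 and 28 in Control. At 3.32 and 8.27 CPM in Prmt5 KO and 1.95 and 6.57 CPM in Control, the groups overlapped. Il9r (chr11:32187541-32200279), the IL-9 receptor chain, had 20 and 29 exon reads in Prmt5 KO and 18 and 35 in Control. Its levels also overlapped, at 1.36 and 5.71 CPM in Prmt5 KO and 3.19 and 8.22 CPM in Control. The 95% interval of the log2 fold change ran from -2.03 to 2.91 for Il15ra and from -3.35 to 1.93 for Il9r.

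Intron reads of Il2rg made up a larger share of its gene reads in both Prmt5 KO libraries. They numbered 372 and 63 in Prmt5 KO and 21 and 26 in Control, or 3.91% (95% Wilson interval 3.54 to 4.31) and 1.44% (1.13 to 1.84) in Prmt5 KO and 0.309% (0.202 to 0.472) and 0.349% (0.238 to 0.511) in Control. The groups did not overlap, which was not counted over all genes, and Prmt5 KO 1 had the highest share. The median intron share over 7898 genes was also higher in Prmt5 KO, at 7.13% and 4.35% against 2.06% and 3.42% in Control. Set against all genes, the ratio of intron to exon reads of Il2rg had a log2 change of 2.09 ± 0.79 (SE), at the 89.2th percentile of the genes tested. The unadjusted p was 0.0176 and the adjusted p = 0.998 in edgeR with library as a block. Of the 7898 genes 0% passed and 301 had an unadjusted p under 0.05. With intron and exon reads scaled alike, which leaves the general difference in intron reads in the value, the change was 2.89 and the median over all genes 0.97.

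Several limits of the table bear on this value. None of the intron reads of Il2rg, whose introns lie inside the span of Gm20489, was unique, so the test planned on unique reads could not include it and the values above use total reads. The exons of the table include those of the retained-intron transcript, so that 717 of the 2208 intron bases of the longest transcript, all of introns 2 and 3 and part of intron 4, count as exon. Reads kept in those introns would be counted among the exon reads that cross no junction. Leaving out Prmt5 KO 1 gave a change of 1.46, and leaving out Prmt5 KO 2 gave 2.57. Without Control 1 the change was 2.37, and without Control 2 it was 1.83. The exon reads of this ratio include those that cross no junction, which were highest in Control 2.

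Intron reads of the other chains did not pass the test either. Il7r had intron shares of 16.5% and 10.2% in Prmt5 KO and 3.74% and 7.003% in Control, without overlap, and a log2 change of the unique intron to exon ratio of 0.50 ± 0.78 (SE, adjusted p = 1 in edgeR). Il21r had 7.88% and 6.42% in Prmt5 KO and 3.95% and 4.06% in Control, also without overlap, with a change of 0.04 ± 1.12. The median share over 7898 genes did not overlap either, at 7.13% and 4.35% in Prmt5 KO and 2.06% and 3.42% in Control. How many genes had shares without overlap was not counted. Il2rb had 1.05% and 2.91% in Prmt5 KO and 0.670% and 1.20% in Control, so that its groups overlapped, with a change of 0.05 ± 0.91. Il4ra had 12 and 0 intron reads in Prmt5 KO and 0 in both Control libraries, too few for a usable estimate. Of the 4 chains tested with unique reads, 0 were called, the smallest unadjusted p was 0.526 for Il7r, and of 7400 genes 0% were called and 229 had an unadjusted p under 0.05. Il2ra, Il15ra and Il9r had too few reads for this test.

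**Figure D5:**
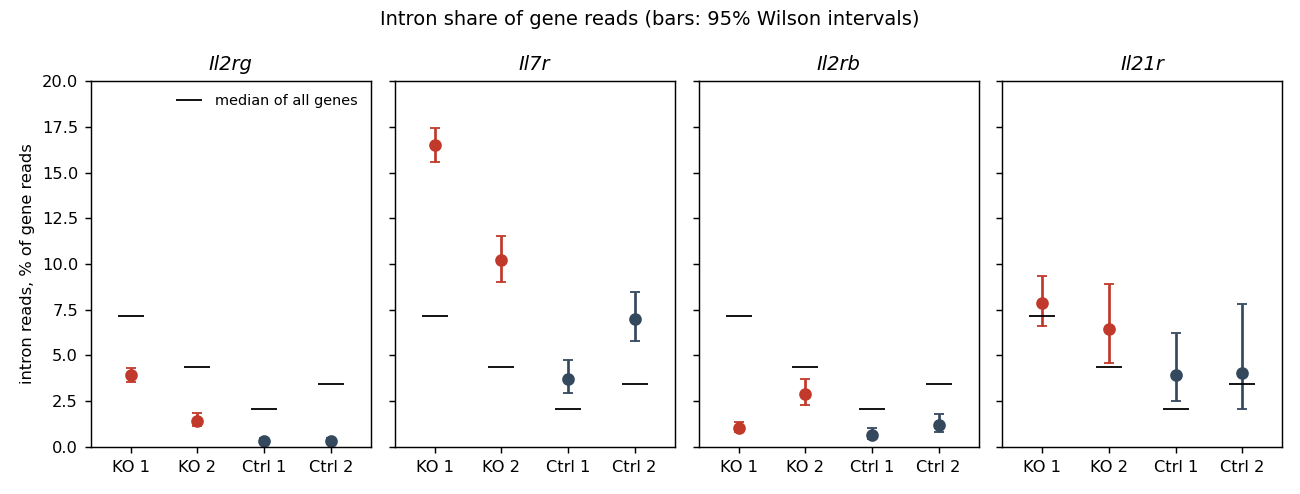
Intron reads as a percentage of gene reads in each library (points, with 95% Wilson intervals) for Il2rg, Il7r, Il2rb and Il21r, with the median over 7898 genes in the same library (black dashes). The shares of Il2rg are 3.91% and 1.44% in Prmt5 KO and at most 0.349% in Control, below the median of all genes in every library.

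The cytokines that these receptors bind were mostly absent. Of 7 ligand genes, 2 passed the filter on low counts, and Il9 and Tslp had 0 reads in every library. Il4 stood at 47.6 and 47.6 CPM in Prmt5 KO, against 55.96 and 87.1 CPM in Control, and Il21 at 20.2 and 6.30 CPM in Prmt5 KO and 11.7 and 9.86 CPM in Control. Neither passed (adjusted p of 0.741 and 0.962 in edgeR). Of the 2 partner chains outside the family, Crlf2, which joins the Il7r chain in the TSLP receptor, was tested, at 8.34 and 10.2 CPM in Prmt5 KO and 13.99 and 18.3 CPM in Control (adjusted p = 0.801).

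Below the receptors, Jak3 was the gene nearest the threshold. The kinase bound by the gamma chain stood at 47.4 and 32.9 CPM in Prmt5 KO, against 218 and 225 CPM in Control, with a log2 fold change of -2.46 ± 0.34 (SE, adjusted p = 0.0561 in edgeR's quasi-likelihood test). Whether it was called depended on the tool and filter. The adjusted p was 6.39e-08 with DESeq2, 0.0161 with limma-voom, 2.62e-07 with edgeR's exact test, 2.11e-07 without a filter on low counts, 0.0332 at 10 CPM or more in 2 libraries and 0.0460 with total gene reads. It was 0.135 without TMM, and between 0.0533 and 0.145 with 1 library left out. Of the 7 genes of JAK and STAT proteins below the chains, 0 were called by the quasi-likelihood test on exon reads, and under each of the 6 settings just named that called Jak3 it was the 1 gene called. Among the 7, 3 had an unadjusted p under 0.05, 4 had positive and 3 negative log2 fold changes, and the median was 0.04. Jak1 had a log2 fold change of -0.01.

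Among cytokine receptor chains outside the family, lower values in Prmt5 KO were the more frequent. Of 23 listed, 21 were tested, 0 were called by the quasi-likelihood test and 7 had an unadjusted p under 0.05. Log2 fold changes were positive for 8 and negative for 13, against 5384 and 5391 of all 10775 genes tested. The median was -0.11 against -0.03 for the gamma chain family. The list shares genes with the subset markers below: Il23r, Il17re and Il1r1 with NKT17, and Il17rb with NKT2. Each of these shared genes was lower in Prmt5 KO and among those with an unadjusted p under 0.05. The groups did not overlap for 3 of them upward and 9 downward, against 20.5% and 19% of all genes. DESeq2 called 3 of the 21 lower (Il18r1, Il23r and Il27ra), edgeR's exact test 2 (Il23r and Il27ra) and limma-voom 0. Over all 10775 genes tested, these tools called 75, 83 and 12 lower, in that order. The smallest p-values belonged to Il27ra, a chain of the IL-27 receptor, at 157 and 106 CPM in Prmt5 KO and 494 and 433 CPM in Control (adjusted p = 0.127), and to Il23r, with 0 reads in Prmt5 KO and 5.14 and 8.22 CPM in Control (adjusted p = 0.229).

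Genes whose levels ran most like those of the 3 most abundant chains were found by distance. The measure was the Euclidean distance of log2(CPM + 1), centred over the 4 libraries, among 6877 other genes averaging 20 CPM or more, and with 4 libraries it describes and tests nothing. Nearest to Il2rg were Fkbp2 (distance 0.07), 2310036O22Rik (0.10) and Rhbdd1 (0.11). Fkbp2, a prolyl isomerase, stood at 28.9 and 42.1 CPM in Prmt5 KO and 59.1 and 88.0 CPM in Control. Nearest to Il7r were Dck (0.06), Btla (0.07) and Hnrnph2 (0.08), and nearest to Il2rb were Dhcr7 (0.03), Zfp652 (0.06) and Pex5 (0.07).

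T cell markers were present in every library, and of the iNKT subset lists the summed NKT17 markers did not overlap between the groups. All 8 T and iNKT cell markers were tested, with a summed level of 3813 and 5467 CPM in Prmt5 KO and 4864 and 5694 CPM in Control. The sums overlapped, but single markers ran in both directions. The groups did not overlap for 3 of the 8 upward and 3 downward, against 20.5% and 19% of all genes tested. Tbx21, whose protein T-bet is absent from stage 1 cells by the label and is known to induce Il2rb, stood at 13.4 and 5.71 CPM in Prmt5 KO, against 107 and 64.6 CPM in Control. The other listed markers of cells excluded by the sort, Cd24a and Klrb1c, did not share this pattern. Cd24a was higher in Prmt5 KO, at 5.56 and 2.56 CPM, against 0 and 0 CPM in Control. Klrb1c overlapped, at 2.91 and 13.8 CPM in Prmt5 KO and 36.8 and 13.1 CPM in Control. The 9 NKT1 markers summed to 150 and 298 CPM in Prmt5 KO and to 383 and 298 CPM in Control, so the sums overlapped. Of the 8 tested, 7 had negative log2 fold changes, with a median of -1.63. Nkg7, named after its values were seen, ran the other way and made up most of the Prmt5 KO sums, at 109 and 259 CPM in Prmt5 KO, against 106 and 81.7 CPM in Control. The 6 NKT2 markers also overlapped, summing to 928 and 1439 CPM in Prmt5 KO and to 1351 and 1636 CPM in Control. The 8 NKT17 markers summed to 19.5 and 17.5 CPM in Prmt5 KO and to 209 and 125 CPM in Control. All 7 tested had negative log2 fold changes. Blk was the largest part of the Control sums, at 114 and 61.3 CPM, against 2.37 and 0 CPM in Prmt5 KO. Sdc1 made up most of the Prmt5 KO sums, at 12.6 and 14.6 CPM, and overlapped Control, at 32.6 and 10.8 CPM. Mast cell markers summed to 13.6 and 23.6 CPM in Prmt5 KO and to 2.12 and 0 CPM in Control, with Mcpt4 at 0. Myeloid markers summed to 12.6 and 7.09 CPM in Prmt5 KO and to 1.95 and 0.469 CPM in Control, with Lyz2, Itgax and Cd14 at 0. Both kinds of cell can express Il4ra. Sums were also higher in Prmt5 KO for NK (11.1 and 22.4 against 8.85 and 7.75 CPM) and epithelial markers (5.76 and 7.88 against 2.48 and 0 CPM). The same held for B cell markers (0.271 and 3.94 against 0.177 and 0 CPM). The 2 NK markers tested ran in opposite directions. Prf1 was higher in Prmt5 KO, at 8.20 and 17.3 against 1.06 and 0.235 CPM, and Gzma was lower, at 1.76 and 0.788 against 6.73 and 7.04 CPM. Sums of double-positive thymocyte markers overlapped. Those of gamma-delta T cell markers were lower in Prmt5 KO, at 186 and 172 against 291 and 299 CPM. Most of each sum was Tcrg-C1, at 162 and 155 CPM in Prmt5 KO and 183 and 244 CPM in Control. Of the 3 tested, Tcrg-C1 and Sox13 were lower in Prmt5 KO. Trdc ran the other way, at 2.85 and 2.36 CPM in Prmt5 KO, against 0.177 and 2.35 CPM in Control. The 7 regulatory T cell markers summed to 178 and 204 CPM in Prmt5 KO and to 130 and 120 CPM in Control, with Foxp3 at 3.05 and 3.74 CPM in Prmt5 KO and 0 and 0.469 CPM in Control, the opposite direction to Il2ra. In bulk samples, fewer cells of a type and less RNA per cell cannot be told apart, and the part of these subsets in the receptor levels was not tested.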

How the data were processed

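The authors deposited 1 table of unnormalized read counts per gene from 4 libraries, giving exon, exon-exon junction, intron and gene reads, each as total and as unique counts. Reads are marked as single and trimmed in the deposited column names. The submitters' processing notes name mm10 and edgeR. For the mapper and the annotation, nothing is given in the sources used here. Exon and intron counts added up to gene counts for all 46517 genes. Apart from gene coordinates, the 43 other columns kept per library, RPKM among them, gave no value used here. Gene exon length, also from the authors, scaled levels per kilobase. Starts in the table count from 0 and are printed with 1 added.

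Total exon counts of all genes were filtered (filterByExpr), given TMM factors and compared, Prmt5 KO over Control, by edgeR's quasi-likelihood test (edgeR 4.0.16, R 4.3.3). Calls needed a Benjamini-Hochberg adjusted p under 0.05. Standard errors are the log2 fold change divided by the root of F. Intron against exon reads, and non-unique against unique exon reads, were tested as group by read kind with library as a block, with TMM factors for each kind; the first needed 20 exon reads in each library and 10 intron reads summed over libraries, the second 20 reads of each kind summed over libraries. Both models were run on simulated data with changes larger than those of Il2rg and Il4ra in exon reads. Those runs do not show whether changes of that size would be called. Alternatives used DESeq2 1.42.0, limma 3.58.1, other read columns, scalings, filters, a block for the replicate number, and fits that left out each library. The split into reads that cross no junction, the deposited junction counts that are unique, and the fits of total intron reads or junction reads without 1 library, and the scaling of both kinds of read by 1 library factor, were added after the data were seen. An exact permutation test of 2 against 2 cannot go below a two-sided p of 0.333 and was not used. Replicate libraries were not copies of each other: chi-square over its degrees of freedom was 65.9 within Prmt5 KO and 34.0 within Control. Depth was 4600799 to 13240293 exon reads, and 1 read was worth 0.0678 to 0.235 CPM; where a library had 0 reads, 3 reads served as the floor, for counting error only.

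The members and gene lists were chosen with earlier results of these data known. Genes named beside the members were those of each list with an adjusted p under 0.10 or else the 2 with the smallest p, Jak1 as the partner of Jak3, the 3 nearest in pattern to Il2rg, Il7r and Il2rb, and, named after their values were seen, markers and list genes called by another tool or fit.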

Additional observations from a re-analysis of the deposited data

How the results depend on the processing

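No receptor gene passed the threshold in exon-level reads under any of 17 alternatives. Of 131 member fold changes under them, 127 kept their direction and 4 turned, each with 1 library left out: Il15ra was between -0.34 and 1.55 and Il9r between -2.05 and 0.12. The log2 fold change of Il2rg ran from -1.24 to -0.72 with 1 library left out, from -0.79 to -0.27 in junction reads with 1 library left out, and from -1.33 to -0.37 under the other alternatives, with adjusted p of at least 0.0673. The number of genes called higher and lower depended on the tool and filter: 93 and 75 with DESeq2, 1 and 12 with limma-voom, 121 and 83 with the edgeR exact test, 110 and 105 without a filter on low counts, 6 and 13 at 10 CPM or more in 2 libraries, and 5 and 9 with total gene reads. Unique gene reads gave 3 lower. With 1 library left out there were 0 to 13 higher and 1 to 24 lower. In the intron test, 0 members were called under every alternative run, but directions were not firm: with 1 library left out, Il2rb lay between -0.87 and 0.94 in unique and between -0.83 and 1.02 in total reads, and Il21r between -0.38 and 0.52 in unique reads. In total reads Il21r was at -0.0057 without Prmt5 KO 1, -0.052 without Prmt5 KO 2 and -0.27 without Control 2, and in unique reads at -0.0046 at 50 intron reads or more. In the test of unique reads, 0 to 1 members were called with 1 library left out, the call being Il2rg at -1.11 without Control 1. The cause of these differences was not tested.

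Libraries share replicate numbers but nothing ties a number to a mouse or a day of preparation. The deposited column names of all libraries hold the same date and run name. Their IonXpress numbers alternate between Control and Prmt5 KO in replicate order, which does not show how the libraries were prepared. The deviations of same-numbered libraries correlated at 0.21 across genes, and with 2 pairs this does not pair them. With the replicate block, 180 genes were called higher and 182 lower, none of them a receptor gene, and Il2rg was at -0.996. With the block, Jak3 had an adjusted p of 3.29e-07, and 2 of the 7 signalling genes (Jak3 and Stat5b) and 7 of the 21 other receptor chains were called; without a filter on low counts, 4 of 23 of those chains were. Il2ra, Il15ra and Il9r had at most 49 exon reads in any library and the widest intervals of the 8; whether depth accounts for the missing calls was not tested. A difference of the size seen for Il2rg or Il4ra was past an unadjusted p of 0.05 but not past adjustment over 10775 genes.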
